A study of Mus musculus with 8 samples.

Results

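Cbln4, Aard, Mro, Cst9, Nedd9, Tesc, Mmd2, Vnn1, Defb19 and Hsd17b3 are 10 genes known as early markers of pre-Sertoli cells, the supporting cells of the forming testis. They were taken from a list of names and matched by gene symbol to the deposited tables, which hold 48440 genes. All 10 were found, 7 of them passed the filter on low values in XY and 7 in XX, and all 10 are described. Polyadenylated RNA of whole mouse gonads at embryonic day 11.5 was sequenced in 8 libraries, 2 for each of the groups XY Kdm6b-null, XY wild type, XX Kdm6b-null and XX wild type. Each library pooled 2 pairs of untreated gonads from embryos that had been sexed and genotyped for Kdm6b, whose product strips repressive methylation off lysine 27 of histone H3. The sources used here do not give the design of the null allele or the strain background. The labels name pre-Sertoli cells for XY and pre-granulosa cells for XX, but describe no sorting, so other cell types of the gonad and its surroundings contribute RNA. In such bulk samples, fewer cells of a type and less RNA per cell cannot be told apart.

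Before this stage the gonads of both sexes are alike. In XY embryos the Y-linked gene Sry is then switched on in supporting cell precursors, its product raises Sox9, and Sox9 with its targets sets the precursors on the Sertoli path. In XX gonads the same precursors become pre-granulosa cells. Early pre-Sertoli markers start to separate the sexes while the supporting cells are still turning over from the shared precursor state, before the organization of testis cords.

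Kdm6b served as the check of the labels. It had 1137 ± 142 normalized counts in XY null gonads and 3290 ± 154 in XY wild type gonads, with 1187 ± 87.1 in XX null gonads and 2507 ± 409 in XX wild type gonads (SD, n = 2 each). A normalized count is a read count divided by the authors' size factor of the library. Kdm6b reads thus remained at 34.6% of the wild type level in XY and 47.4% in XX, and the null libraries lay below the wild type libraries in both sexes. The antisense gene Kdm6bos, which lies within Kdm6b at chr11:69401513-69402700 (GRCm38, plus strand), was at 0 in all 4 null libraries. Among wild type libraries its normalized counts were 27.7 and 25.9 in XY, with 24.3 and 19.2 in XX. As the deleted part of the gene is unknown here, the remaining Kdm6b reads could not be placed in or out of it. In the authors' deposited table the log2 fold change was -1.53 in XY and -1.08 in XX, with adjusted p of 8.2e-25 and 7.1e-07.

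The libraries held 19107103 to 19828638 counts. A gene read at 0 in a library may have an expected count of up to 3, which corresponded to 2.91 to 3.09 normalized counts. Intervals and this limit cover counting error only. Replicates of every group differed beyond sampling noise, with 25.7 to 51.2% of tested genes more than 2 counting standard deviations apart. They are separate pools, but nothing says that they came from separate litters, so p-values measure only the spread between these pools. XX wild type stood apart: its replicates correlated at 0.963, against 0.980 to 0.985 in the other groups, across genes. Liver and yolk sac markers summed to 83.7 and 94.96 normalized counts in XX null, against 13977 and 438 in XX wild type replicates 1 and 2. The XX fold changes of Cbln4, Cst9, Vnn1, Mmd2, Nedd9 and Mro are therefore also given without either XX wild type library. The XX fold changes of other genes are given on both libraries only, which does not show them to be stable.

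Upstream sequence from RefSeq (GRCm38.p6) was at hand for 6 of the 10 genes, as the 250 bases before the RefSeq start of Cbln4, Cst9, Nedd9, Tesc, Mmd2 and Hsd17b3. The Nedd9 window (chr13:41359002-41359251) lies inside the gene interval given below, so it precedes an internal start and not the 5′ end of that interval. The Mmd2 window (chr5:142608753-142609002) overlaps the 5′ end of its interval. Each window was searched on both strands for AACAAT, the core that SRY and SOX proteins bind. It was also searched for ACAAAG, a core shared by SOX and TCF proteins. AAGGTCA, a site of the orphan receptor NR5A1, was the third motif searched for. AGATAA, a core bound by GATA factors, was the fourth. AACAAT and ACAAAG share the letters ACAA, and no match found here belonged to both. AACAAT was present in 1 of the 6 windows (Cbln4) and in 9.42% of all 32851 windows of that length. ACAAAG was present in 2 of the 6 (Cst9 and Nedd9) and in 16.5% of all windows, while AAGGTCA (4.08% of all) and AGATAA (9.99% of all) were in 0 of the 6. The 2 windows are shown because Cbln4 and Cst9 had the lowest XY null to wild type ratios among the 7 of the 10 genes that were tested, with the match in capitals, written 5′ to 3′ in the direction of the gene. Cbln4 lies on the minus strand with its window at chr2:172043467-172043716, and Cst9 on the plus strand with its window at chr2:148834897-148835146.
Cbln4: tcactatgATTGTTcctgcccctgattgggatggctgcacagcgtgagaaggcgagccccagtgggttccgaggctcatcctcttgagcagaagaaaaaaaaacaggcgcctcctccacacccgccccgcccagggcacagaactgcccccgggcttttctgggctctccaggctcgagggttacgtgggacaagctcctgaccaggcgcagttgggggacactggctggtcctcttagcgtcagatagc
Cst9: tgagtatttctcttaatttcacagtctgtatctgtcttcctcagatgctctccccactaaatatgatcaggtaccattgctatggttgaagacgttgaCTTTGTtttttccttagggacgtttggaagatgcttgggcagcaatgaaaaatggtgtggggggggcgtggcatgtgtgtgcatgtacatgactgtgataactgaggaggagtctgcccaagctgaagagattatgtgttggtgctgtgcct
The capitals in Cbln4 are AACAAT read on the opposite strand, 242 to 237 bases before the start, and those in Cst9 are ACAAAG read on the opposite strand, 152 to 147 bases before it. A match is a description of letters, not evidence of binding.

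Across the 10 genes, XY null gonads had the lower mean for 10 of 10. For 7 of them (Cbln4, Cst9, Nedd9, Tesc, Vnn1, Defb19 and Hsd17b3) both null libraries lay below both wild type libraries. Defb19 and Hsd17b3 are among the 7 although their XY null libraries held 1 or 2 counts, under the limit of 3 counts. Among all XY genes with a mean of at least 1 normalized count, 49.4% had a lower null mean and 16.7% had null libraries wholly below wild type. The median log2 fold change over the 10 genes was -0.79 in XY (-1.01 in null replicate 1 and -0.52 in null replicate 2, each against the wild type mean). That median includes the 3 genes under the filter. Over the 7 tested genes alone it was -0.50, where the median over all tested genes was 0.00. The medians of the other lists given below are over tested genes only. None of the 10 passed the test. Limma with Benjamini-Hochberg adjustment called 0% of 16821 XY genes at an adjusted p under 0.05, and 834 had an unadjusted p under 0.05. Kdm6b itself had a limma adjusted p of 0.12 in XY and 0.19 in XX. The authors' deposited table called 72 (0.402%) of the 17890 XY genes with an adjusted p. That table gives an adjusted p in XY for 8 of the 10 genes, all but Defb19 and Hsd17b3, and none of the 8 was called. An unadjusted limma p under 0.05 with lower null values was found for 3 of the 10 (Cbln4, Cst9 and Vnn1) and for 2.85% of all tested genes. In XX, 5 of the 10 means were lower in null, beside 53.6% of all genes with a mean of at least 1. The XX median log2 fold change over the 10 genes was -0.09. Leaving out XX wild type replicate 1 gave 0.073, and leaving out Hsd17b3 gave -0.22. Over the 7 genes tested in XX alone, the median was 0.04.

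**Figure D1:**
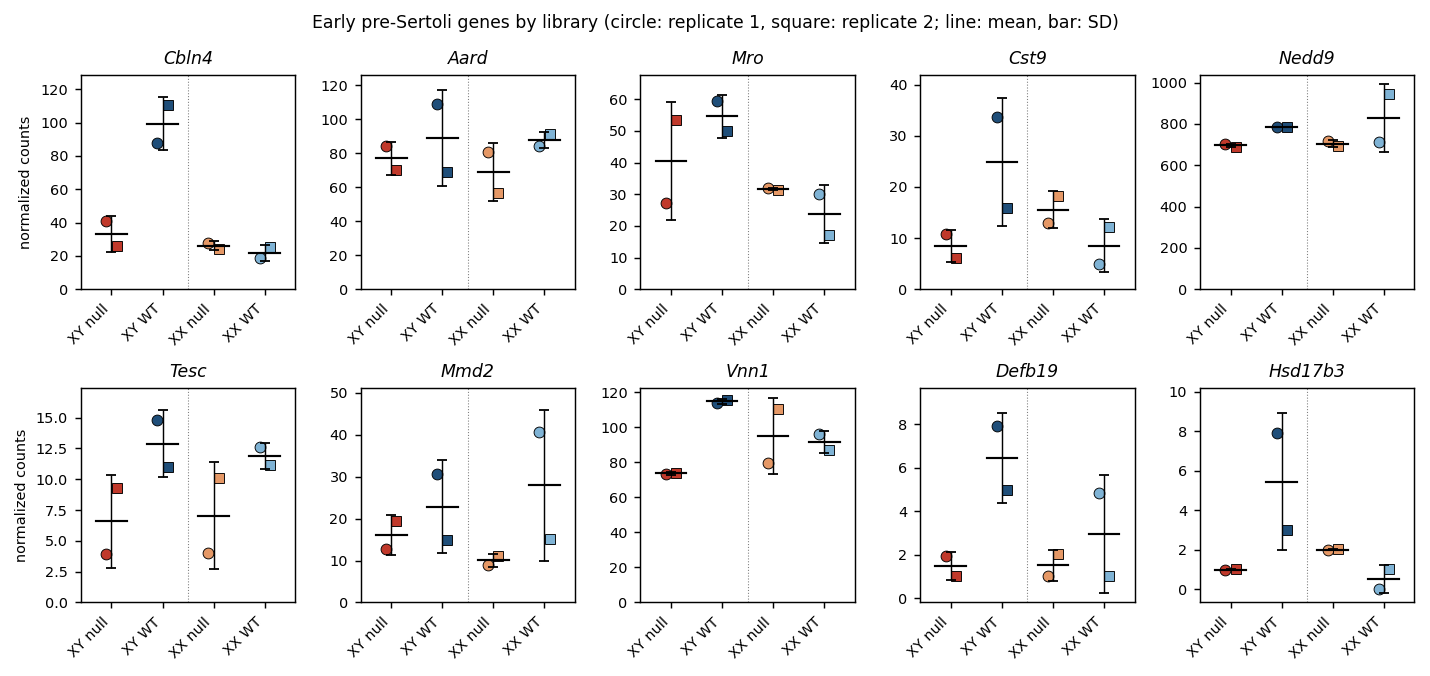
Normalized counts (vertical axis, linear) of the 10 genes in each library, by group, with circles for replicate 1, squares for replicate 2, a line for the mean and a bar for the SD (n = 2). Cbln4 stands at 41.0 and 25.7 in XY null against 88.0 and 111 in XY wild type, while its XX groups lie between 18.4 and 27.9.

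Among the genes of secreted products, Cbln4 had the most negative XY log2 fold change of those tested. It encodes a cerebellin, a secreted protein of the C1q family, and lies at chr2:172036233-172043466 (GRCm38, minus strand). Cbln4 had 41.0 and 25.7 normalized counts in XY null gonads, against 88.0 and 111 in XY wild type gonads. XX values of Cbln4 were 27.9 and 24.2 in null, against 18.4 and 25.3 in wild type. The XY groups did not overlap, the XX groups did, and the XY null values reached down to the XX range. The XY null mean was 33.6% of wild type, a log2 fold change of -1.57 (SE 0.32, 95% interval -2.37 to -0.78, limma adjusted p = 0.63). In XX the log2 fold change was 0.26 (SE 0.36, limma adjusted p = 0.77), and leaving out XX wild type replicate 1 gave 0.039, leaving out replicate 2 gave 0.48. The XY effect minus the XX effect was -1.83 (SE 0.46, limma unadjusted p = 0.005, adjusted p = 0.57). Summed over libraries, 67 counts in XY null stood against 200 in XY wild type, a ratio of 0.338 with an exact 95% counting interval of 0.252 to 0.448. The authors' deposited table gave a log2 fold change of -1.57 with an adjusted p of 0.11 in XY.

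Cst9 (chr2:148835147-148838738, plus strand), a cystatin related to inhibitors of cysteine proteases, showed opposite positions in the 2 sexes. It had 10.7 and 6.18 normalized counts in XY null, against 33.6 and 16.0 in XY wild type. In XX the values were 13.0 and 18.2 in null, against 4.85 and 12.1 in wild type. No null library overlapped a wild type library in either sex, with null below in XY and above in XX. The log2 fold change was -1.40 (SE 0.51, limma adjusted p = 0.96) in XY and 0.90 (SE 0.59, limma adjusted p = 0.52) in XX. Without XX wild type replicate 1 the XX value was 0.32, and without replicate 2 it was 1.48. The difference between these effects was -2.30 (SE 0.81, limma unadjusted p = 0.023, adjusted p = 0.57). Cst9 rests on 17 counts in XY null and 50 in XY wild type, and its XY wild type replicates lay 2.52 counting standard deviations apart.

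Defb19 (chr2:152576086-152580312, minus strand), a beta-defensin peptide gene, was close to the counting limit. It had 2 and 1 counts in XY null libraries, against 8 and 5 in XY wild type. The groups did not overlap, and the ratio of normalized sums was 0.233 (exact 95% counting interval 0.0425 to 0.847). In XX it had 1 and 2 counts in null, against 5 and 1 in wild type, which overlap. Defb19 stayed under the filter in both sexes and was not tested.

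Of the genes of enzymes and membrane proteins, Vnn1 had close replicates in XY. It lies at chr10:23894688-23905343 on the plus strand and encodes vanin 1, a membrane-anchored pantetheinase that releases cysteamine and pantothenic acid. Vnn1 had 73.2 and 74.1 normalized counts in XY null, against 114 and 116 in XY wild type. XX values of Vnn1 were 79.7 and 110.1 in null, against 96.0 and 87.0 in wild type. The XY groups did not overlap and the XX groups did. Replicates lay 0.08 counting standard deviations apart in XY null and 0.12 in XY wild type, closer than counting error usually gives. With n = 2, that spread is no measure of how far apart the XY groups are. The log2 fold change was -0.63 (SE 0.19, limma unadjusted p = 0.018, adjusted p = 0.87) in XY and 0.04 (SE 0.24) in XX, and the difference of -0.67 (SE 0.30) did not pass the test either. The ratio of counts in XY was 0.642, with an exact 95% counting interval of 0.518 to 0.793.

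Hsd17b3 (chr13:64058274-64089201, minus strand) encodes the 17-beta-hydroxysteroid dehydrogenase that turns androstenedione into testosterone, in the mouse fetal testis a Sertoli cell enzyme. It had 1 and 1 counts in XY null, against 8 and 3 in XY wild type. In XX it had 2 and 2 counts in null, against 0 and 1 in wild type. The XY groups did not overlap, and their ratio of 0.183 has an exact 95% counting interval of 0.0198 to 0.840. Both XX groups lay under the limit of 3 counts, so no fold is given there, and Hsd17b3 was not tested in either sex.

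Mmd2 (chr5:142562358-142608800, minus strand), a membrane protein of the progestin and adipoQ receptor family, differed more between its XY wild type replicates than between the XY genotypes. It had 12.7 and 19.6 normalized counts in XY null, against 30.7 and 15.0 in XY wild type. XX values of Mmd2 were 8.97 and 11.1 in null, against 40.7 and 15.2 in wild type. The XY groups overlapped, and in XX both null libraries were below both wild type libraries. The XX log2 fold change was -1.24 (SE 0.58, limma adjusted p = 0.40). It was -0.56 without XX wild type replicate 1, the library high in liver markers. Without XX wild type replicate 2 it was -1.93, with that liver-rich library as the only XX wild type. In XY the log2 fold change was -0.42 (SE 0.47), and 0.072 without XY wild type replicate 1.

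Among the intracellular proteins, Nedd9 had the most normalized counts, also per kilobase of exon. It lies at chr13:41309916-41487320 on the minus strand and encodes a scaffold protein of the Cas family that acts in integrin signalling and cell adhesion. Nedd9 had 702 and 689.6 normalized counts in XY null, against 785 and 784 in XY wild type. XX values of Nedd9 were 716 and 694 in null, against 713 and 946 in wild type. The XY null libraries lay below wild type by a log2 fold change of -0.17 (SE 0.08, limma unadjusted p = 0.08), and the XX groups overlapped. In XX its log2 fold change was -0.22 (SE 0.16), and leaving out XX wild type replicate 1 gave -0.42, leaving out replicate 2 gave -0.016. The antisense gene Gm26877 lies within Nedd9 and had 2.02 to 9.97 normalized counts. Whether the authors counted by strand is unknown here, so reads of the 2 cannot be told apart.

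Tesc (chr5:118027743-118061878, plus strand) encodes tescalcin, a calcium-binding EF-hand protein. It had 3.90 and 9.26 normalized counts in XY null, against 14.8 and 10.97 in XY wild type. XX values of Tesc were 3.99 and 10.1 in null, against 12.6 and 11.1 in wild type. Null libraries were below wild type in both sexes, with a log2 fold change of -0.96 in XY and -0.79 in XX, but replicate 1 and replicate 2 of each null group were far apart. The mean over the 4 libraries was 9.74 in XY and 9.46 in XX, just under the minimum of 10, so Tesc was not tested.

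Aard (chr15:52040107-52045722, plus strand), an alanine- and arginine-rich protein, and Mro, or maestro, a nuclear protein with HEAT-like repeats, did not separate the XY genotypes. Aard had 83.9 and 70.0 normalized counts in XY null, against 109 and 68.8 in XY wild type. It had 80.7 and 56.6 in XX null, against 84.4 and 91.0 in XX wild type. Aard thus overlapped between genotypes in XY, and its XX null libraries lay below XX wild type. Mro had 27.3 and 53.5 in XY null, against 59.4 and 49.8 in XY wild type. It had 31.9 and 31.3 in XX null, against 30.1 and 17.2 in XX wild type. Mro overlapped in XY too, but its XX null libraries lay above XX wild type. The XY log2 fold change was -0.17 (SE 0.29, 95% interval -0.90 to 0.56) for Aard, and 0.15 without XY wild type replicate 1. For Mro it was -0.50 (SE 0.38) in XY, and from -0.97 without XY null replicate 2 to -0.023 without XY null replicate 1. In XX the Mro log2 fold change was 0.46 (SE 0.39), and leaving out XX wild type replicate 1 gave 0.84, leaving out replicate 2 gave 0.069. Neither gene passed the limma test in either sex.

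**Figure D2:**
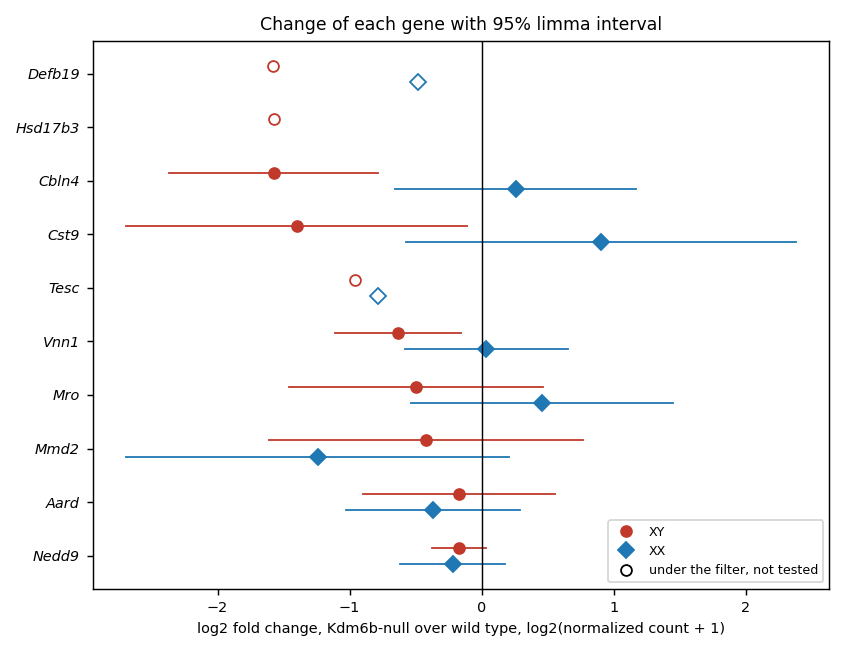
Log2 fold change of Kdm6b-null over wild type (horizontal axis) of each gene in XY (circles) and XX (diamonds), with 95% limma intervals; open symbols are genes under the filter, and Hsd17b3 in XX is left out because both groups lay under 3 counts. The intervals of Cbln4, Cst9 and Vnn1 in XY lie below 0, and all the tested XX intervals cross it.

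In XX, 3 of the 10 genes (Aard, Tesc and Mmd2) were lower in null without overlap, beside 23.6% of all XX genes with a mean of at least 1, and 2 (Mro and Cst9) were higher, beside 22.2%. Hsd17b3 also read higher but is not counted, because both of its XX groups lay under the limit of 3 counts. The shares leave out no gene for this limit, and by their rule 3 of the 10 were higher. Limma called 0% of 17028 XX genes, with 2383 at an unadjusted p under 0.05, and the authors' deposited table called 407 (2.77%) of the 14704 genes with an adjusted p. That table gives an adjusted p in XX for 4 of the 10 genes (Aard, Mro, Nedd9 and Vnn1), none of them called. The limma count depended on the XX wild type libraries, with 621 calls without replicate 1 and 3550 without replicate 2. Of the 10 genes, only Mmd2 was among the calls without replicate 2, a fit that left 1 XX wild type library. The difference between the sexes was called for 0% of 17282 genes, with 1443 at an unadjusted p under 0.05, and for 44 without XX wild type replicate 2. Among the 10 genes, Cbln4 and Cst9 had such a p with a more negative effect in XY, as did 5.61% of all genes.

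The sexes were set side by side within a genotype as CPM, a gene's counts over the total of its library, with no test, because the authors normalized XY and XX apart. In wild type gonads, XY lay above XX in both libraries for Cbln4, Mro, Cst9 and Vnn1. Hsd17b3 read the same way with 8 and 3 counts in XY wild type, against 0 and 1 in XX wild type. It is not counted among them, because a gene read at 0 may have an expected count of up to 3. XY thus lay above XX for 4 of the 10 genes and below it for 0. The shares that follow leave out no gene for this limit, so by their rule Hsd17b3 would join the 4. Among 23557 genes with a mean of at least 1 normalized count over the 8 libraries, XY lay above XX for 17.7% and below it for 23.9%. Cbln4 had 4.57 and 5.68 CPM in XY wild type, against 0.994 and 1.300 in XX wild type, a ratio of means of 4.47. The ratio was 2.90 for Cst9, 2.25 for Mro and 1.23 for Vnn1. The wild type sexes overlapped for Aard, Nedd9, Tesc, Mmd2 and Defb19. In null gonads Cbln4 had 2.15 and 1.31 CPM in XY, against 1.42 and 1.21 in XX, which overlap. Cst9 and Vnn1 were lower in XY null than in XX null, with ratios of 0.56 and 0.80, and Mmd2 was higher, with a ratio of 1.64. Hsd17b3 also read lower in XY null, with 1 count in each XY null library against 2 in each XX null library, all under the limit of 3 counts, so no ratio is given. Among the same 23557 genes, XY null lay above XX null for 20.9% and below it for 10.8%. The wild type XY libraries enter both this comparison and that with XY null, so the 2 are not independent.

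**Figure D3:**
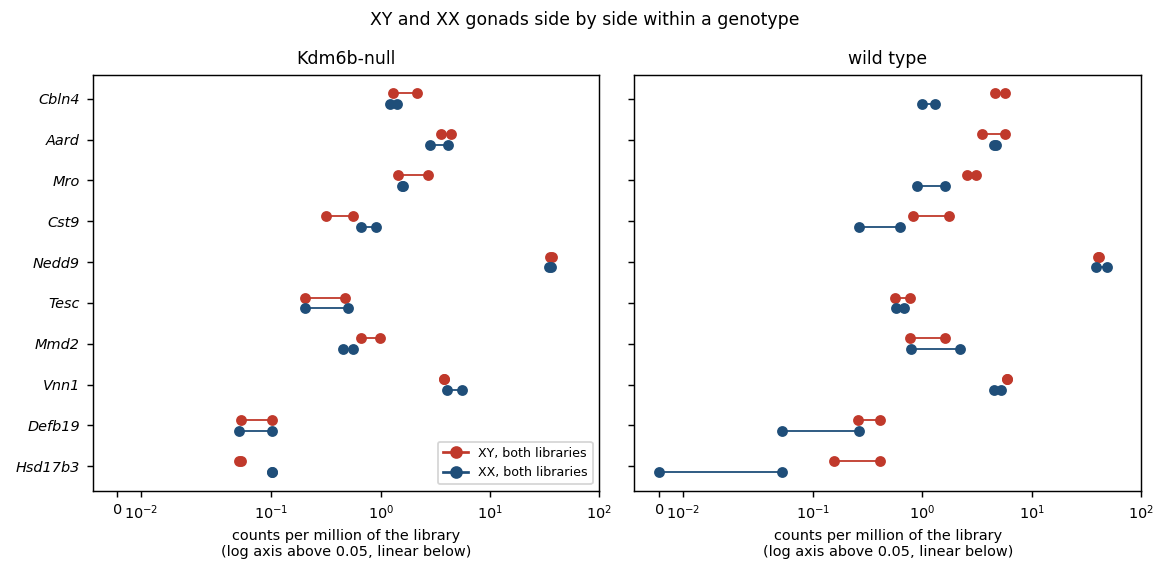
CPM of the library (horizontal axis, log above 0.05 and linear below) of each gene in XY and XX gonads, for Kdm6b-null (left) and wild type (right), with a line joining both libraries of a group. In wild type gonads XY stands clear above XX for Cbln4 and Mro, and in null gonads Cbln4 overlaps.

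Per kilobase of exon, the XY level was highest for Nedd9, with 109 normalized counts in null and 123 in wild type, and lowest for Hsd17b3, with 0.721 in null and 3.92 in wild type. In XY wild type the order was Nedd9, Aard (65.9 ± 21.0, SD, n = 2), Vnn1 (47.5), Cst9 (36.1 ± 18.2), Cbln4 (34.2 ± 5.5), Defb19 (16.4), Mro (12.3), Tesc (8.11), Mmd2 (4.39) and Hsd17b3. Of these neighbours, Vnn1 with Cst9, Cst9 with Cbln4, Defb19 with Mro, and Mmd2 with Hsd17b3 overlapped between libraries. In XY null, Cbln4 stood at 11.5 and Cst9 at 12.3 normalized counts per kilobase.

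The genes were read beside a list of 22 other Sertoli and testis pathway genes, of which 17 were tested in XY. The log2 fold change was below 0 for 15 of the 17, with a median of -0.43, and for 10 both null libraries lay below both wild type libraries, beside 16.3% of all tested genes. Sry, the switch gene, had 19.5 and 6.18 normalized counts in XY null, against 57.4 and 73.8 in XY wild type, a log2 fold change of -2.45 (SE 0.55, limma adjusted p = 0.69). Sry was at 0 in all 4 XX libraries, which allows an expected count of up to 3 in each. Inhbb, a subunit of activin and inhibin B, had 167 and 274 in XY null, against 555 and 611 in XY wild type, and was the 1 gene of the list with an adjusted p under 0.05 in the authors' deposited table (log2 fold change -1.41). Dmrt1, a testis transcription factor, had 53.6 and 59.7 in XY null, against 126 and 137 in XY wild type. Sox9 had 1021 and 495 in XY null, against 910 and 767 in XY wild type, which overlap, as did Fgf9, a growth factor that sustains Sox9, and Amh, anti-Müllerian hormone. Amh stayed between 7.76 and 15.6 in all libraries. In XX 16 genes of the list were tested, 8 with a log2 fold change below 0, and the median was 0.00.

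**Figure D4:**
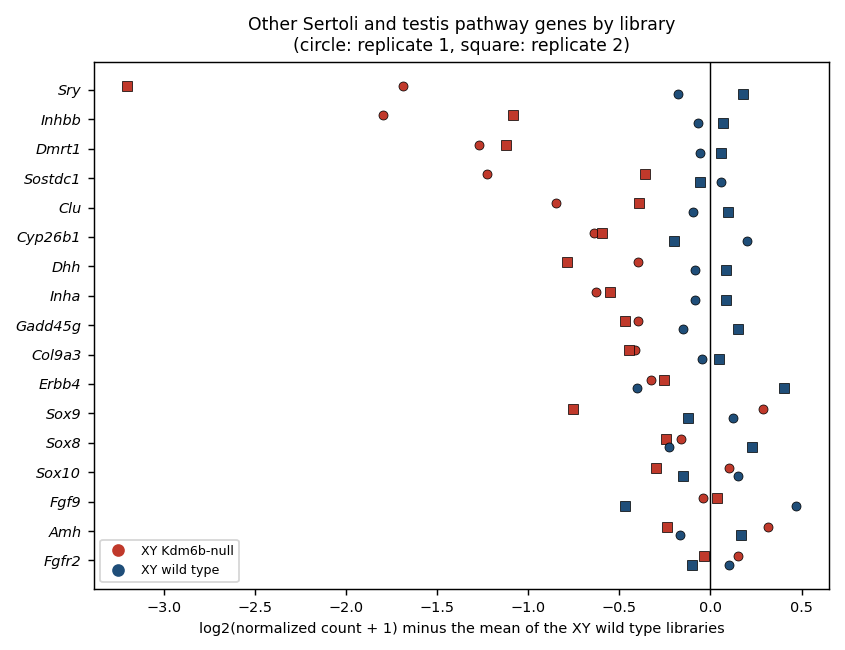
Each other Sertoli and testis pathway gene tested in XY, as log2(normalized count + 1) minus the mean of the XY wild type libraries (horizontal axis), with null in red and wild type in blue. Null values lie left of both wild type values for 10 of the 17 genes, Sry, Inhbb and Dmrt1 the farthest, and straddle them for Sox9.

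Of 14 supporting and pre-granulosa genes, 12 were tested in XY, 10 had a log2 fold change below 0 and the median was -0.36. Kctd14 was the 1 of them with an adjusted p under 0.05 in the authors' deposited table, with 1578 and 1169 normalized counts in XY null, against 4195 and 3374 in XY wild type. Foxl2, a transcription factor of granulosa cells, was under the filter and not tested, and is given after its values were seen. It had 6.83 and 11.3 normalized counts in XY null, against 1.98 and 1.99 in XY wild type, the XY wild type values under the limit of 3 counts. XX values of Foxl2 were 0.997 and 4.04 in null, against 13.6 and 4.05 in wild type. Of 11 early somatic genes of the gonad, all tested in XY, 7 had a log2 fold change below 0, with a median of -0.05. For 3 of them both XY null libraries lay below both wild type libraries, beside 16.3% of all tested genes, and for 1 both lay above. Lhx9 was the 1 of the list with an adjusted p under 0.05 in the authors' deposited table for XY (log2 fold change -0.96). Their summed level was 15045 and 19145 in XY null, against 19067 and 20393 in XY wild type.

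Markers of other cell types were summed beside these values. In XY, germ cell markers summed to 3818 and 2569 normalized counts in null, against 1937 and 2778 in wild type, and 10 of 10 tested had a positive log2 fold change (median 0.36). Macrophage markers summed to 2771 and 2938 in null, against 2124 and 2297 in wild type (8 of 9 positive, median 0.44). Endothelial markers summed to 16135 and 15049 in null, against 15483 and 20457 in wild type (8 of 9 negative, median -0.22). Erythroid markers summed to 68367 and 209405 in null, against 59826 and 102652 in wild type (9 of 9 positive, median 0.45), and Leydig and steroidogenic markers to 5666 and 3322 in null, against 5677 and 4281 in wild type (5 of 6 negative, median -0.37). The sums of germ cell, endothelial, erythroid and Leydig markers overlapped between the XY genotypes, and those of macrophage markers did not. The sums of adrenal (median 0.09), mesonephric (median 0.01), neural crest and neuron (median -0.15) and liver and yolk sac markers (median -0.74, 3 tested) overlapped too. In XX, endothelial markers were higher in null (9 of 9 positive, median 0.40) and liver and yolk sac markers lower (6 of 6 negative, median -4.13). The other XX medians were -1.46 for adrenal, -0.43 for Leydig, -0.30 for germ cell, -0.30 for erythroid, -0.27 for macrophage, -0.26 for neural crest and neuron, 0.07 for early somatic and 0.48 for mesonephric genes. Adrenal markers summed to 202 and 237 in XX null, against 994 and 146 in XX wild type replicates 1 and 2, which overlap. The list medians were not recomputed without a library. No marker of these lists was at 0 in all libraries of a sex. Their part in the values of the 10 genes was not tested.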

How the data were processed

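Polyadenylated RNA of whole gonads was sequenced with 100-base paired reads, per the labels' protocols, in 8 libraries of 4 groups, with groups and replicate numbers taken from the sample titles. The growth protocol speaks of 4 samples, and all 8 listed were used. Per the submitters' processing notes, the authors used build GRCm38 (mm10), STAR 2.7.11, cutadapt 4.9, DESeq2 2.11.40.8 and featureCounts 2.0.8. How strands and multimapping reads were handled, the annotation release and any filter were not given in the sources. As deposited, the signal of a gene is its count divided by a size factor that the authors set per library, with XY and XX apart. The authors' deposited comparison tables hold a log2 fold change, a p-value, an adjusted p-value and a Wald score, the last not used. The nonzero values of each library were all multiples of 1 step to within 1e-06 of it, and that step was read as 1 count for depths, limits and counting intervals. No count model was run, although the design allowed for one as an added alternative.

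Here limma 3.58.1 in R 4.3.3 was fitted with a variance trend on log2(normalized count + 1), a scale that understates the change of low genes, for genes with a mean of at least 10 in the 4 libraries of a sex. Genotype was the only term, with Benjamini-Hochberg adjustment at 0.05 over all tested genes. XY and XX were fitted alone, and the difference of their effects in 1 fit of the 8 libraries. Exon lengths came from GENCODE M21, which gives 87.7% of the 48058 matched gene IDs the same coordinates as the deposited files, and upstream sequence from RefSeq. The scripts were tested on simulated data. The 10 genes, the marker lists and the naming rule (Kdm6b, the 10 genes, Sry, Sox9, Fgf9, Amh and Dmrt1, then list members past a threshold or of smallest p, with Foxl2 and Kdm6bos added after their values were seen) were chosen with earlier results of these data known. Alternatives were other pseudocounts (0.5 and 5), filters, centring, no variance trend, a replicate block, 1 joint fit and leaving out each library.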

Additional observations from a re-analysis of the deposited data

Results flagged for a closer look

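For Cst9, Dhh and Cyp26b1, and for Cbln1 described below, every null library lay below wild type in XY and above it in XX. The share of all genes with this joint pattern was not computed. Of 9 endothelial markers, 2 had null wholly below wild type in XY and 8 had it wholly above in XX. The joint pattern thus occurred there too and is not particular to the genes named here. For each sex alone, among genes with a mean of at least 1, 16.7% lay below in XY and 22.2% above in XX. The XY effect minus the XX effect was -2.30 on the log2 scale for Cst9, with a limma adjusted p of 0.57. Dhh, a hedgehog ligand of Sertoli cells, had 59.5 and 45.3 normalized counts in XY null, against 74.2 and 83.7 in XY wild type. In XX it had 70.8 and 82.8 in null, against 65.0 and 53.6 in wild type. Its effects differed by -0.96 (SE 0.34, limma adjusted p = 0.57). Cyp26b1, which breaks down retinoic acid, had 649.6 and 671 in XY null, against 1164 and 882 in XY wild type. In XX it had 599.9 and 539 in null, against 455 and 516 in wild type. Its effects differed by -0.85 (SE 0.20, limma adjusted p = 0.57).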

How the results depend on the processing

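Over the alternatives that kept both libraries of every group, none of the 10 genes passed the limma threshold. Without XX wild type replicate 2, which left 1 library in that group, the XX log2 fold change of Mmd2 was -1.93. Leaving out 1 library at a time, the XY log2 fold change ranged from -1.90 to -1.25 for Cbln4, -1.92 to -0.89 for Cst9 and -0.64 to -0.62 for Vnn1. The narrow Vnn1 range follows from its close replicates. The median over the 10 genes ranged from -1.04 to -0.52 in XY and from -0.16 to 0.073 in XX. Without Hsd17b3, chosen after seeing the data, it was -0.63 in XY and -0.22 in XX. Directions turned in XY without XY wild type replicate 1 for Aard (0.15, range -0.50 to 0.15) and Mmd2 (0.072, range -0.92 to 0.072). In XX they turned for Vnn1, at -0.20 without XX null replicate 2 and -0.04 without XX wild type replicate 2 (range -0.20 to 0.27). The XY effect minus the XX effect turned for Tesc (0.36 without XY null replicate 1, range -0.75 to 0.36), Aard (-0.13 without XY wild type replicate 2 and -0.06 without XX null replicate 2, range -0.13 to 0.52) and Nedd9 (-0.16 without XX wild type replicate 2, range -0.16 to 0.25). The Tesc range rests on 2 fits, without XY null replicate 1 or without XX null replicate 1. Tesc passed the filter in no other fit that left out a library. The cause of these turns was not tested. With 1 library left out at a time, where the lone library is assumed to vary like the other groups, limma called 0 to 2 genes in XY, 0 to 3550 in XX and 0 to 44 for the difference. Those in XY were Gm13394 and Gm15772 without null replicate 1, Gm15772 and Hmgb1-ps7 without null replicate 2, and Trim12a and Rps2-ps13 without wild type replicate 2. The XY count was 1 without the variance trend (Kdm6bos), and the XX count was 10 in the joint fit. These genes were named after their values were seen. The filter, trend and joint fit do not enter the median over the 10 genes.

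Same-numbered libraries of the 2 genotypes deviated together with a correlation of 0.24 in XY and -0.06 in XX. With 2 pairs a sex, the numbers were not taken as pairing. With the replicate block limma called 23 genes in XY, 2 in XX (Actc1 and Hbb-bs) and 0 for the difference, none of the 10 among them. Depth limits Defb19 and Hsd17b3, at 1 to 8 counts in every XY library, and Tesc.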

Other observations

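Relatives of the 10 genes were read as a list of 18, of which 12 were tested in XY (8 with a log2 fold change below 0, median -0.09) and 13 in XX (7 below 0, median -0.12). Cbln1, a cerebellin like Cbln4, had 58.5 and 112 normalized counts in XY null, against 129 and 168 in XY wild type. In XX it had 89.7 and 156 in null, against 43.7 and 68.8 in wild type. Its XY groups and its XX groups did not overlap, with null lower in XY and higher in XX, and the difference between the effects was -1.95 (SE 0.57, limma adjusted p = 0.57). Hsd17b7, a steroid dehydrogenase of cholesterol synthesis, had 420.4 and 360.3 in XY null, against 540.1 and 593 in XY wild type, and its XX groups overlapped. Bcar1, a Cas scaffold like Nedd9, was called higher in XX null in the authors' deposited table (log2 fold change 0.78), with 2034 and 1972 in XX null, against 1058 and 1278 in XX wild type.

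Fzd1, a WNT receptor of the supporting list, was also called higher in XX null in the authors' deposited table, at 3031 and 2977 normalized counts in XX null, against 2023 and 2120 in XX wild type. Fgf9 had 68.8 and 85.9 in XX null, against 138 and 202 in XX wild type, a log2 fold change of -1.11 (SE 0.26, limma adjusted p = 0.26). The supporting and pre-granulosa list had a median of -0.21 in XX.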
